A study of Homo sapiens with 6 samples.

Results

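Polycomb repressive complex 2 (PRC2) was examined in a pooled CRISPR knockout screen through the guides of 10 of its genes. The genes were chosen by name. They were the core subunits EZH2, EZH1, EED, SUZ12 and RBBP7, the PRC2.1 accessory subunits MTF2, PHF1 and PHF19, and the PRC2.2 accessory subunits JARID2 and AEBP2. All 10 were present, of 7093 genes in the guide table, and each had 10 guides. All 100 of these guides passed the filter on low library counts. The screen used HAP1, an established human line from a leukaemia, with a nearly haploid genome. It compared SETD2-mutant HAP1 cells with parental HAP1 cells, both grown for 12 doublings after guide infection at a multiplicity of 0.7 and kept under puromycin, and with samples labelled as the guide library. There were 2 samples of each. The labels give neither the SETD2 allele nor the number of mutant clones, nor the way in which the library samples were taken.

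PRC2 is the enzyme complex that methylates lysine 27 of histone H3 (H3K27), the mark of Polycomb-silenced genes. EZH2 or its paralogue EZH1 carries the catalytic SET domain, EED binds the methylated product, SUZ12 is the scaffold on which the complex is built, and RBBP7 and its paralogue RBBP4 are histone-binding proteins that also serve in other chromatin complexes. MTF2, PHF1 and PHF19, the Polycomb-like proteins, define PRC2.1 and carry a DNA-binding region and a Tudor domain that can bind trimethylated H3K36. JARID2 and AEBP2 define PRC2.2, which can bind ubiquitinated histone H2A. SETD2 places the trimethyl mark on H3K36 and NSD1 the lower methylation states, and H3K36 methylation on a histone tail hinders PRC2 from methylating H3K27 on that tail.

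Total counts per sample ranged from 25082426 to 38428425, and the lower of the SETD2-mutant samples was the shallowest. Replicates differed by a chi-square per degree of freedom of 12.9 in SETD2-mutant samples, 14.1 in parental samples and 1.37 in library samples, where counting error alone gives about 1. Guide counts read the effect of losing a gene on growth and not its expression. The replicates of a line share 1 infection, so the p-values cover the variation among these samples and may be technical. SETD2 itself, the mutated gene, was enriched between the lines, by 0.50 on the log2 scale (adjusted p = 0.00626), a call that was lost without SETD2-mutant replicate 2 (adjusted p = 0.0789 by edgeR and RRA). Both lines had SETD2 below library, at −0.61 in SETD2-mutant cells, not called by edgeR and RRA, and at −1.12 in parental cells. The parental value was called depleted (adjusted p = 0.000296 by edgeR and RRA), so the 0.50 reflects a smaller loss in SETD2-mutant cells. NSD1, named in the title of the series, was depleted between the lines by −1.77 (adjusted p = 8.82e-09 by edgeR and RRA). Against library NSD1 was depleted by −0.97 in SETD2-mutant cells and enriched by 0.80 in parental cells (adjusted p = 0.00539 and 0.00260 by edgeR and RRA). Its call in SETD2-mutant cells was lost when the limit on the share of ranks used by RRA was 0.1. Over 16 other settings its change in parental cells ran from 0.03 to 0.87.

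The first comparison, SETD2-mutant against parental, asks which gene losses weigh more on growth when SETD2 is mutated. Each guide was tested with the edgeR quasi-likelihood test, and the guides of a gene were combined by robust rank aggregation (RRA), which asks whether they rank higher among all guides than independent ranks would. Calls in either direction were made where the p adjusted over 7090 genes was below 0.05. The change of a gene is the mean log2 change of its guides, with the standard error (SE) over its 10 guides, so a negative value means that cells carrying these guides became rarer. Of the 10 PRC2 genes 1 was depleted, MTF2, against 1.28% of all genes. None of the 10 was enriched, against 1.03% of all genes. Unadjusted, MTF2 and PHF1 passed 0.05 by RRA for depletion, against 7.53% of all genes, and EZH2, EED and AEBP2 for enrichment, against 6.84%.

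MTF2, which brings PRC2.1 to unmethylated CpG islands, fell in SETD2-mutant cells when set against parental cells. Its summed guide level was 82.5 and 89.3 CPM (counts scaled to a common library total) in the SETD2-mutant samples, against 257 and 275 CPM in the parental samples, while the library samples held 201 and 202 CPM. Both SETD2-mutant samples lay below the library and both parental samples above it. The mean change over guides from library was −1.56 and −1.35 in the SETD2-mutant samples, against 0.20 and 0.31 in the parental samples. The change between the lines was −1.71 (SE 0.25, 10 of 10 guides down, adjusted p = 3.52e-07 by edgeR and RRA). MTF2 had the fourth lowest RRA p for depletion among the 7090 genes, and 0.268% of genes had a lower mean change.

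The guides of MTF2 differed in size of change. Their changes between the lines ran from −2.61 to −0.34 with a median of −1.61, and 8 of 10 were below −1. Guide HZD_EPI_04448 had 9.99 and 8.65 CPM in the SETD2-mutant samples, against 56.3 and 57.3 CPM in the parental samples, with 27.6 and 29.8 CPM in the library. This guide lay below the library in SETD2-mutant cells and above it in parental cells. Guide HZD_EPI_04449 had 2.35 and 4.40 CPM in the SETD2-mutant samples, against 17.7 and 22.0 CPM in the parental samples, with 29.3 and 27.8 CPM in the library. It lay below the library in both lines, and further below in SETD2-mutant cells. The weakest, HZD_EPI_04453, had 16.1 and 19.1 CPM in the SETD2-mutant samples, against 17.8 and 26.8 CPM in the parental samples, and it was the 1 guide of MTF2 whose samples overlapped between the lines. In the other 9 both SETD2-mutant samples lay below both parental samples.

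**Figure D1:**
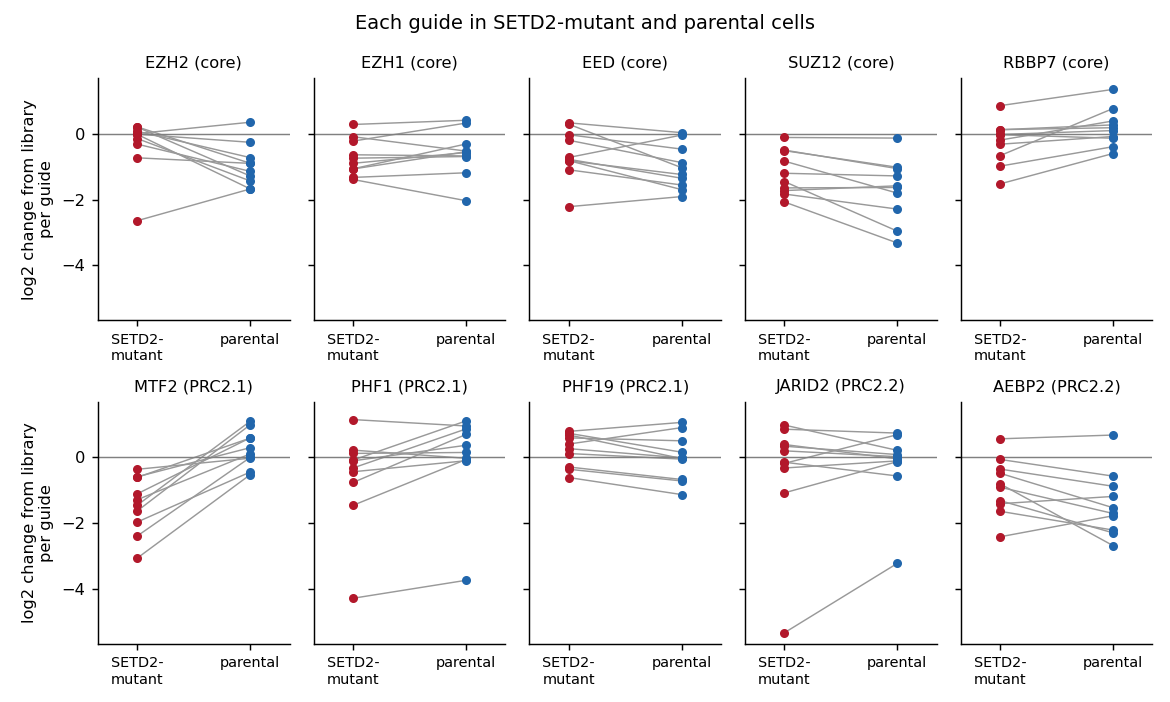
Log2 change from library of each of the 10 guides of each PRC2 gene, with SETD2-mutant cells on the left (red) and parental cells on the right (blue) and a grey line joining the same guide. All MTF2 lines run from below 0 in SETD2-mutant cells to a higher value in parental cells, while single guides of PHF1 and JARID2 lie far below the others in both lines.

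The second comparison, parental against library, gives the loss of each subunit's guides over the screen. Of the 10 PRC2 genes 4 were depleted, SUZ12, AEBP2, EED and EZH2, against 9.90% of all genes, and none was enriched, against 1.11% of all genes. Unadjusted, 5 passed 0.05 by RRA for depletion, EZH1 being the fifth, against 12.1% of all genes, and 0 for enrichment, against 9.39%. Limma on gene means called 6 of 10 depleted, against 31.4% of all genes, and 2 of 10 enriched, MTF2 and RBBP7, against 23.5% of all genes. The enzymatic trio EZH2, EED and SUZ12 and the PRC2.2 subunit AEBP2 thus made up the depleted genes, and no PRC2.1 subunit was among them.

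SUZ12 stood lowest, at −1.80 and −1.61 in the parental samples, and its change from library was −1.71 (SE 0.299, 10 of 10 guides down, adjusted p = 0.000147 by edgeR and RRA). AEBP2, a zinc finger protein that stabilises PRC2.2, stood at −1.44 and −1.37, a change of −1.41 (SE 0.310, 9 of 10 guides down, adjusted p = 0.00170). EED stood at −0.99 and −1.05, a change of −1.02 (SE 0.213, 9 of 10 guides down, adjusted p = 0.00529). EZH2 stood at −1.06 and −0.90, a change of −0.97 (SE 0.201, 9 of 10 guides down, adjusted p = 0.00498), and this call was lost when the limit on the share of ranks used by RRA was 0.1 (adjusted p = 0.280). EZH1, the other catalytic subunit, stood at −0.59 and −0.58 and was not called (SE 0.220, 8 of 10 guides down, adjusted p = 0.135). It passed the threshold without SETD2-mutant replicate 1 (adjusted p = 0.0251) and without SETD2-mutant replicate 2 (0.0257), with the change at −0.58 in each, without its most changed guide (0.0310, change −0.42) and with DESeq2 per guide (0.0270).

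None of the remaining subunits was called in parental cells by edgeR and RRA, and the median change of all genes was −0.02. MTF2 changed by 0.26 (SE 0.174) and RBBP7 by 0.18 (SE 0.178), neither called (adjusted p = 0.606 and 0.926 for enrichment by edgeR and RRA). PHF1 was at 0.02, JARID2 at −0.23 and PHF19 within 0.01 of 0. Of all genes 82.7% lay lower than MTF2, 73.7% lower than RBBP7, 54.2% lower than PHF1, 51.7% lower than PHF19 and 28.7% lower than JARID2. Limma also called JARID2 depleted (adjusted p = 0.0358). These levels are relative to other genes. When samples were scaled on the 100 guides labelled dummyguide, whose meaning the labels do not state, the median gene shifted by −0.78, and MTF2 stood at −0.51, RBBP7 at −0.60, PHF1 at −0.76, PHF19 at −0.78 and JARID2 at −1.01.

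The third comparison, SETD2-mutant against library, gives the same readout in the mutant line. Of the 10 PRC2 genes 2 were depleted, MTF2 and SUZ12, against 9.06% of all genes, and none was enriched, against 1.11% of all genes. Unadjusted, 5 passed 0.05 by RRA for depletion, against 12.0% of all genes, and 0 for enrichment, against 10.3%. Limma on gene means called 9 of 10 depleted, against 38.1% of all genes, and 0 enriched, against 23.7% of all genes. MTF2 changed by −1.44 (SE 0.269, 10 of 10 guides down, adjusted p = 0.000446 by edgeR and RRA), the lowest of the 10. SUZ12 changed by −1.19 (SE 0.210, 10 of 10 guides down, adjusted p = 0.0222). The SUZ12 call was lost without SETD2-mutant replicate 1 (adjusted p = 0.0656), SETD2-mutant replicate 2 (0.396), parental replicate 1 (0.102) or parental replicate 2 (0.109), where the change stayed between −1.28 and −1.19. It was also lost at a rank share limit of 0.1 (adjusted p = 1) and with dummyguide scaling (0.808).

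AEBP2 changed by −0.88 (SE 0.270, 9 of 10 guides down, adjusted p = 0.292) and EZH1 by −0.72 (SE 0.174, 9 of 10 guides down, adjusted p = 0.0810), neither called by edgeR and RRA. EED changed by −0.61 (SE 0.239, adjusted p = 0.343) and EZH2 by −0.34 (SE 0.270, adjusted p = 1). The median guide of EZH2 stood at −0.02, with 6 guides below 0 and 4 above. RBBP7 was at −0.27, JARID2 at −0.43, PHF1 at −0.60 and PHF19 at 0.23, none called. The median of all genes was −0.05. A test without a call does not show that a gene had no effect.

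**Figure D2:**
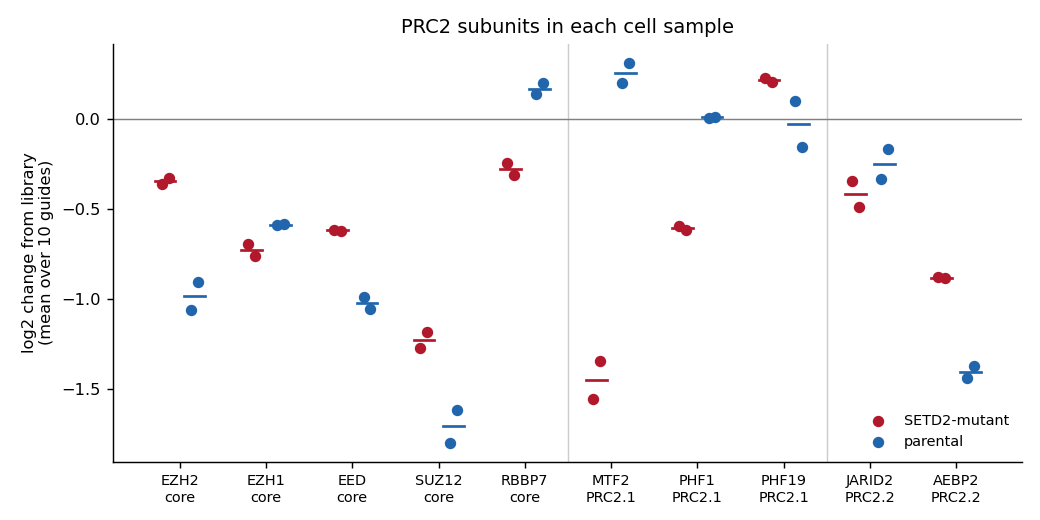
Mean log2 change from library over 10 guides for each PRC2 gene, with SETD2-mutant samples in red on the left, parental samples in blue on the right, a point per sample and a bar at the mean of the 2 samples. EZH2, EED, SUZ12 and AEBP2 lie higher in both SETD2-mutant samples than in both parental samples, and MTF2, PHF1 and RBBP7 lie lower.

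The core subunits were then set side by side between the lines. EZH2 stood at −0.36 and −0.33 in the SETD2-mutant samples, against −1.06 and −0.90 in the parental samples, a change of 0.63 (SE 0.265, 8 of 10 guides up; edgeR and RRA adjusted p = 0.101). The samples did not overlap, the mutant ones being higher. EZH2 passed the threshold when any one of library replicate 1 (adjusted p = 0.0337), library replicate 2 (0.0320), parental replicate 1 (0.0372) or parental replicate 2 (0.00748) was left out, where the change ran from 0.57 to 0.73, and with the replicate block (0.0326). Without SETD2-mutant replicate 1 or 2 it was not called. The mean change of EZH2 was higher than that of 98.6% of genes.

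EED stood at −0.61 and −0.62 in the SETD2-mutant samples, against −0.99 and −1.05 in the parental samples, a change of 0.41 (SE 0.178, 8 of 10 guides up; edgeR and RRA adjusted p = 0.121). SUZ12 stood at −1.27 and −1.18 in the SETD2-mutant samples, against −1.80 and −1.61 in the parental samples, a change of 0.52 (SE 0.179, 8 of 10 guides up, adjusted p = 0.824). For each, both SETD2-mutant samples were higher, and neither was called. Limma on the mean over guides called EZH2, EED, SUZ12 and AEBP2 enriched (adjusted p = 0.00123, 0.00289, 0.00495 and 0.00136), which is 4 of 10 PRC2 genes against 12.6% of all genes. It called MTF2, PHF1 and RBBP7 depleted, which is 3 of 10 against 22.1% of all genes. Limma takes the spread between replicates alone and not the spread between guides, and it called many more genes than RRA.

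The guides of EZH2 show how uneven this difference was. Guide HZD_EPI_02093 had 6.17 and 6.41 CPM in the SETD2-mutant samples, against 1.71 and 2.29 CPM in the parental samples, with 6.12 and 6.68 CPM in the library. It was at the library level in SETD2-mutant cells and below it in parental cells. Guide HZD_EPI_02098 had 7.72 and 6.53 CPM in the SETD2-mutant samples, against 2.92 and 2.92 CPM in the parental samples, with 7.98 and 7.82 CPM in the library. In contrast HZD_EPI_02092 had 2.31 and 2.81 CPM in the SETD2-mutant samples, against 4.21 and 5.81 CPM in the parental samples, with 15.1 and 16.9 CPM in the library. This guide lay below the library in both lines, and further below in SETD2-mutant cells. The SD over the 10 EZH2 guides was 0.838, larger than the mean change.

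EZH1 differed little between the lines. It stood at −0.69 and −0.76 in the SETD2-mutant samples, against −0.59 and −0.58 in the parental samples, a change of −0.14 (SE 0.137, 7 of 10 guides down, adjusted p = 1 by edgeR and RRA). The paralogues EZH2 and EZH1 therefore lay on opposite sides of 0 between the lines, though neither was called and the difference of the 2 genes was not tested. RBBP7 stood at −0.24 and −0.31 in the SETD2-mutant samples, against 0.14 and 0.20 in the parental samples, a change of −0.45 (SE 0.146, 9 of 10 guides down, adjusted p = 0.750). Its samples did not overlap, the mutant ones being lower, and 1 guide was below −1.

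RBBP4, the paralogue of RBBP7, lies outside the 10 genes and was the 1 other PRC2-bound protein tested. It was depleted against library in SETD2-mutant cells by −3.16 (SE 0.714, adjusted p = 5.27e-08 by edgeR and RRA) and in parental cells by −2.17 (SE 0.456, adjusted p = 8.98e-07). Between the lines RBBP4 was depleted by −0.98 (SE 0.660, 7 of 10 guides down, adjusted p = 0.0418). The call was lost without SETD2-mutant replicate 1 (adjusted p = 0.446), SETD2-mutant replicate 2 (0.326) or parental replicate 1 (0.116), and at equal loss of ribosomal protein genes in the lines (0.0798, change −0.56). One guide of RBBP4 stood far from the rest, at −6.41, and without the most changed guide the mean was −0.38. Against library edgeR and RRA thus called RBBP4 depleted in both lines and RBBP7 in neither. Limma called RBBP7 depleted in SETD2-mutant cells (adjusted p = 0.00525) and enriched in parental cells (adjusted p = 0.0389).

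Among the PRC2.1 subunits, PHF1 stood at −0.59 and −0.62 in the SETD2-mutant samples, against 0.01 and 0.01 in the parental samples. The change between the lines was −0.62 (SE 0.206, 8 of 10 guides down, adjusted p = 0.123 by edgeR and RRA). The samples did not overlap, with the mutant ones lower, as for MTF2. Of its guides 4 were below −1, against 8 for MTF2. Guide HZD_EPI_05014 had 11.8 and 11.3 CPM in the SETD2-mutant samples, against 25.2 and 27.1 CPM in the parental samples, with 14.6 and 14.2 CPM in the library. Guide HZD_EPI_05023 had 3.22 and 4.67 CPM in the SETD2-mutant samples, against 10.7 and 10.1 CPM in the parental samples, where it was near the library level. The pattern of HZD_EPI_05014, below the library in SETD2-mutant cells and above it in parental cells, was also that of HZD_EPI_04448 of MTF2.

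One PHF1 guide, HZD_EPI_05021, was nearly lost in both lines. It had 1.83 and 0.886 CPM in the SETD2-mutant samples, against 2.16 and 1.70 CPM in the parental samples, with 26.6 and 24.8 CPM in the library. No other PHF1 guide was below −1.46 against library in either line. Without the most changed guide of each gene, PHF1 stood at −0.19 in SETD2-mutant cells and 0.44 in parental cells against library. PHF19, the third Polycomb-like protein, lay on the other side of 0 from MTF2. It stood at 0.23 and 0.21 in the SETD2-mutant samples, against 0.10 and −0.16 in the parental samples, a change of 0.23 (SE 0.119, 8 of 10 guides up; edgeR and RRA adjusted p = 1).

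Of the PRC2.2 subunits, AEBP2 stood at −0.88 and −0.88 in the SETD2-mutant samples, against −1.44 and −1.37 in the parental samples. The change between the lines was 0.53 (SE 0.228, 7 of 10 guides up; edgeR and RRA adjusted p = 0.469), with the mutant samples higher. Guide HZD_EPI_00095 had 5.18 and 5.79 CPM in the SETD2-mutant samples, against 1.47 and 1.52 CPM in the parental samples, with 9.53 and 9.65 CPM in the library. JARID2 stood at −0.34 and −0.49 in the SETD2-mutant samples, against −0.33 and −0.16 in the parental samples, a change of −0.20 (SE 0.275, adjusted p = 1). The JARID2 value rests on 1 guide, HZD_EPI_03597, with 0.159 and 0.207 CPM in the SETD2-mutant samples, against 0.50 and 1.13 CPM in the parental samples, and 7.64 and 7.48 CPM in the library. Without the most changed guide of each gene the JARID2 change was 0.02 between the lines, 0.11 in SETD2-mutant cells and 0.10 in parental cells.

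**Figure D3:**
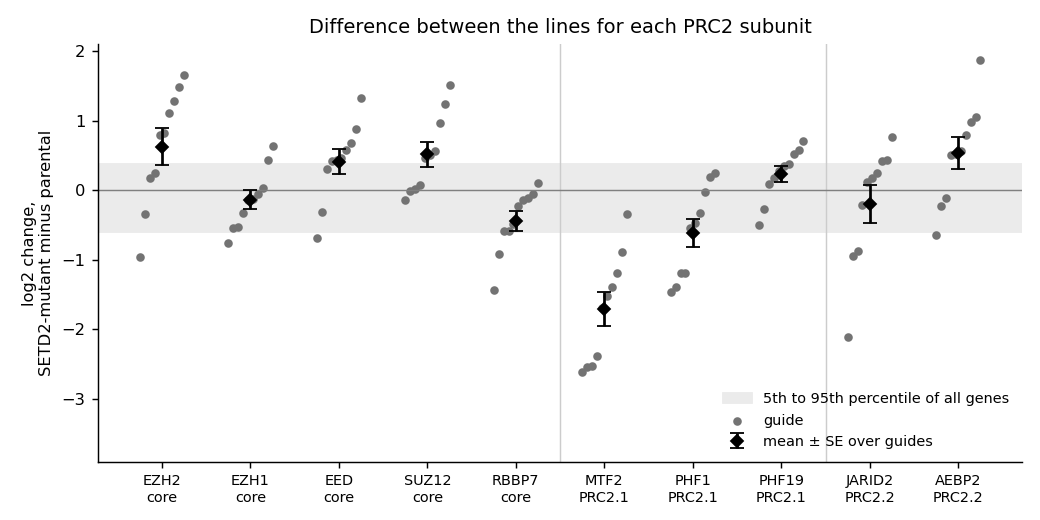
Log2 change of SETD2-mutant minus parental cells for each PRC2 gene, with grey points for guides in order of value, black diamonds for the mean with its SE over 10 guides, and a grey band from the 5th to the 95th percentile of gene means over all genes (−0.60 to 0.37). MTF2 is far below the band, EZH2, EED, SUZ12 and AEBP2 are above it, and PHF1 is just below its lower edge.

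The classes were compared as descriptions, since their members are not replicates. In the core class the mean over the 5 genes was −0.64 and −0.64 in the SETD2-mutant samples, against −0.86 and −0.79 in the parental samples. In PRC2.1 it was −0.64 and −0.58 in the SETD2-mutant samples, against 0.10 and 0.06 in the parental samples. In PRC2.2 it was −0.61 and −0.68 in the SETD2-mutant samples, against −0.88 and −0.77 in the parental samples. The class means were close in the SETD2-mutant line, but the PRC2.1 mean there covers changes from −1.44 for MTF2 to 0.23 for PHF19. In the parental line the PRC2.1 mean lay above the others, with changes from −0.00 for PHF19 to 0.26 for MTF2.

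Between the lines the median change was 0.41 for the core with 0 of 5 called, −0.62 for PRC2.1 with 1 of 3 depleted, and 0.17 for PRC2.2 with 0 of 2 called, against −0.04 for all genes. Over the 10 genes it was 0.05. Of all genes 1.28% were called depleted and 1.03% enriched, so counts of calls in classes this small do not tell the classes apart. The classes were not uniform. RBBP7 and EZH1 lay below 0 in the core, PHF19 above 0 in PRC2.1, and AEBP2 and JARID2 on opposite sides of 0 in PRC2.2. For all 10 genes the SETD2-mutant and parental samples did not overlap, 5 with the mutant lower and 5 with the mutant higher, against 38.9% and 26.9% of all genes.

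The order of the changes from library differed between the lines. In SETD2-mutant cells MTF2 was lowest, followed by SUZ12, AEBP2, EZH1, EED, PHF1, JARID2, EZH2, RBBP7 and PHF19. In parental cells SUZ12 was lowest, followed by AEBP2, EED, EZH2, EZH1, JARID2, PHF19, PHF1, RBBP7 and MTF2. MTF2 was therefore at opposite ends of the order of means. By the median guide, PHF1 at 0.26 lay above MTF2 at 0.20 in parental cells. Neighbours in the order often differed by less than their SE over guides, as EED and EZH2 did in parental cells.

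**Figure D4:**
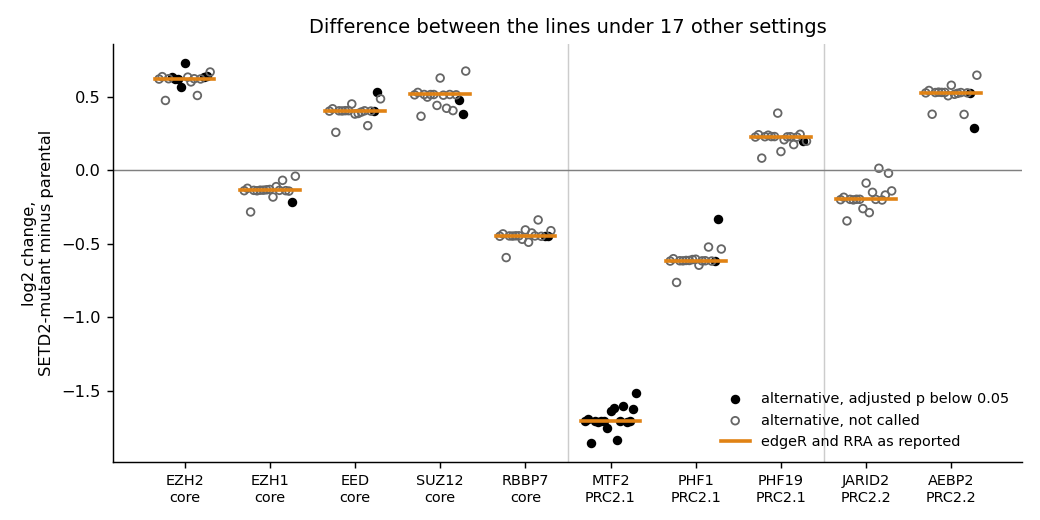
Log2 change of SETD2-mutant minus parental cells for each PRC2 gene under the reported setting (orange bar) and 17 other settings (points in a fixed order, filled where the adjusted p in the direction of the reported change was below 0.05). MTF2 was called in all 17, at −1.86 to −1.51, and EZH2 in 7, while JARID2 changed sign in 1.

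MTF2 was also set beside the genes around it. MTF2 lies on chromosome 1 from 93079283 to 93139076 (GRCh38). Within 5 Mb of its start 23 other genes were screened, 0 of them called between the lines, with a median change of −0.06 and a lowest value of −0.91. The 20 uncalled neighbours of RBBP7 on chromosome X had a median of 0.05, and the 28 of EZH2 on chromosome 7 also had a median of 0.05. For EZH1, on chromosome 17 from 42700275 to 42745040, the 74 uncalled neighbours had a median of −0.20, beside −0.14 for EZH1 itself.

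The genes outside the complex with the most similar values over the 4 cell samples were found for each PRC2 gene called in any comparison. For MTF2 they were IDH3B, a citric acid cycle subunit, TSC1, a restraint on mTORC1, and the histone gene HIST1H2AJ, at Euclidean distances of 0.462, 0.539 and 0.585 in log2 units. The nearest genes to EED were BRE, BLM and UNC79 at 0.0667 to 0.132, to SUZ12 PAF1, RNF8 and C19orf40 at 0.109 to 0.157, to AEBP2 TIPIN, PARP1 and THRA at 0.124 to 0.178, and to EZH2 MTHFD2, NADK and INSIG2 at 0.162 to 0.20. MTF2 thus had no gene as close to it as the other called subunits had. Few genes lie near so extreme a value, as 0.268% of genes had a lower mean change between the lines. The distance is therefore not a separate trait of MTF2.

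Other Polycomb genes gave context. Of 23 tested PRC1 genes, members of the complex that ubiquitinates histone H2A, 3 were depleted between the lines by edgeR and RRA, against 1.28% of all genes. None was enriched, against 1.03% of all genes. Limma called 11 depleted, against 22.1% of all genes, and 3 enriched, against 12.6%. Those called by edgeR and RRA were L3MBTL2 at −0.80 (adjusted p = 0.0218), BCOR at −0.68 (0.0195) and SCMH1 at −0.75 (0.0301 by edgeR and RRA). L3MBTL2 lost its call when any one of SETD2-mutant replicate 1 (0.0829), SETD2-mutant replicate 2 (0.278), parental replicate 1 (0.0680), library replicate 1 (0.0526) or library replicate 2 (0.0582) was left out. SCMH1 lost it without SETD2-mutant replicate 2 (0.0792), parental replicate 1 (0.0980) or parental replicate 2 (0.0684), and BCOR without SETD2-mutant replicate 1 (0.102) or parental replicate 1 (0.292). L3MBTL2 was also lost without its most changed guide (0.0585), and BCOR with DESeq2 per guide (0.126) and at equal ribosomal loss (0.102). KDM2B at −0.59 and PCGF3 at 0.51 had the largest changes among those that edgeR and RRA did not call, and limma called both (adjusted p = 0.00452 and 0.00470). The median of the 23 was −0.18, against −0.04 for all genes. Against library edgeR and RRA called 0 of the 23 depleted in either line, against 9.06% of all genes in SETD2-mutant and 9.90% in parental cells. Limma called 8 depleted in SETD2-mutant cells, against 38.1% of all genes, and 4 in parental cells, against 31.4%. It called 5 enriched in SETD2-mutant cells, against 23.7% of all genes, and 12 in parental cells, against 23.5%. L3MBTL2 was enriched in parental cells by 0.76 (adjusted p = 0.000375 by edgeR and RRA) and stood at −0.04 in SETD2-mutant cells, not called. BCOR stood at −0.75 and SCMH1 at −0.94 in SETD2-mutant cells, against −0.07 and −0.19 in parental cells. Neither was called against library in either line by edgeR and RRA.

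The 2 H3K27 demethylases KDM6A and KDM6B, which remove the PRC2 mark, were not called between the lines, at 0.31 and −0.20 (adjusted p = 0.278 and 0.935 by edgeR and RRA), though limma called KDM6A enriched (adjusted p = 0.0193). Their relative UTY was enriched against library by edgeR and RRA in SETD2-mutant cells by 0.72 (adjusted p = 0.00176) and in parental cells by 0.66 (adjusted p = 0.0164). The parental call was lost without parental replicate 1, where the change was 0.62. With dummyguide scaling UTY lost its enrichment in both lines, while the median gene shifted by −0.92 in SETD2-mutant cells and −0.78 in parental cells. UTY then stood at −0.20 in SETD2-mutant cells and −0.12 in parental cells (adjusted p = 0.0820 and 0.552 for enrichment by edgeR and RRA). Whether these cells carry UTY was not tested. Of 8 genes of the complex that removes ubiquitin from histone H2A, 0 were called between the lines by edgeR and RRA. Of all genes 1.28% were depleted and 1.03% enriched by that test. Limma called 1 of the 8 depleted, against 22.1% of all genes, and 2 enriched, against 12.6%. In each line 3 of the 8 were called depleted against library by edgeR and RRA. Of all genes 9.06% were called depleted in SETD2-mutant and 9.90% in parental cells. The 3 were HCFC1, OGT and BAP1, named after their values were seen. Their adjusted p was 0.00112, 0.00155 and 0.000717 in SETD2-mutant cells and 0.00238, 9.52e-07 and 0.000154 in parental cells. HCFC1 was no longer called in parental cells once RRA used a smaller rank share, 0.1 (0.0569). BAP1, the deubiquitinase, stood at −1.99 in SETD2-mutant and −1.91 in parental cells. ASXL3 was enriched in SETD2-mutant cells by 0.58 (adjusted p = 0.0324 by edgeR and RRA), a call lost without parental replicate 1 (0.0532) or parental replicate 2 (0.0545). HCFC1 at −0.90 and ASXL3 at 0.32 had the largest changes between the lines, and limma called both (adjusted p = 0.00820 and 0.00566).

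Since RBBP4 and RBBP7 also serve in other complexes, 13 subunits of those complexes were examined. Between the lines 2 were depleted by edgeR and RRA, against 1.28% of all genes, SIN3B at −0.89 (adjusted p = 9.60e-05), a corepressor scaffold, and MTA1 at −0.71 (adjusted p = 0.00944 by edgeR and RRA), a subunit of the NuRD complex. MTA1 was not called without parental replicate 2 (0.219) or SETD2-mutant replicate 1 (0.223), nor at a rank share limit of 0.1 (0.30). SIN3A at −0.41 and HDAC1 at −0.36 were called by limma (adjusted p = 0.0210 and 0.0191) but not by edgeR and RRA. Limma called 4 of the 13 depleted, against 22.1% of all genes, and 3 enriched, against 12.6%. Against library edgeR and RRA called 4 depleted in SETD2-mutant cells, SIN3A, BPTF, CHD4 and CHAF1A, against 9.06% of all genes, and 5 in parental cells, the same 4 with CHAF1B, against 9.90% of all genes. The CHD4 call was lost without SETD2-mutant replicate 1 or 2 in both comparisons (adjusted p from 0.113 to 0.403), and against library in SETD2-mutant cells also without library replicate 2 (0.139). At a rank share limit of 0.1 the SIN3A and BPTF calls in parental cells were lost (adjusted p = 0.0720 and 0.244 by edgeR and RRA). The BPTF (0.0737) and CHD4 calls in SETD2-mutant cells were lost there too. SIN3B was enriched in parental cells by 1.07 (adjusted p = 4.14e-05 by edgeR and RRA) and stood at 0.17 in SETD2-mutant cells, not called. MTA1 stood at −0.56 in SETD2-mutant cells and 0.15 in parental cells against library, neither called by edgeR and RRA. Of 4 cell cycle brakes that PRC2 can repress, CDKN2A, CDKN2B, CDKN1A and CDKN1C, 0 were called between the lines by edgeR and RRA. That test called 1.28% of all genes depleted and 1.03% enriched. The median of the 4 was −0.17, against −0.04 for all genes. Limma called 1 depleted, CDKN1A (adjusted p = 0.0271), against 22.1% of all genes, and 1 enriched, against 12.6%. CDKN2A was enriched in parental cells against library by 0.80 (adjusted p = 0.0416 by edgeR and RRA). This call was lost without parental replicate 2, where the change was 0.78. It was also lost with dummyguide scaling (change 0.03, adjusted p = 0.104 by edgeR and RRA) and without its most changed guide (change 0.69, adjusted p = 0.0598).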

How the data were processed

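Guide inserts were recovered from cell DNA by PCR and sequenced from 1 end (75 bp), per the labels' protocols. The authors deposited raw counts per guide, with MAGeCK and hg38 named in the submitters' processing notes without role or version. The table held 71626 guides, 100 of them labelled dummyguide. Total counts per sample were 25082426 and 33878004 (SETD2-mutant), 38197301 and 34003792 (parental) and 38428425 and 34679351 (library). Guide sequences were not used here.

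The 71470 guides that averaged at least 30 counts in the library were scaled with TMM factors and fitted over all 6 samples by group with edgeR 4.0.16 in R 4.3.3 (glmQLFit, robust, and glmQLFTest). One-sided guide ranks were combined by RRA with a rank share limit of 0.25, rebuilt from its published description. Its p-values were computed exactly for independent uniform ranks and adjusted by Benjamini-Hochberg over the 7090 genes with 3 or more guides, in each direction. Small p-values rest on the assumption that guides of a gene rank independently. Values per sample are means over guides of log2 CPM (prior count 2) minus the mean of the library samples. Alternatives used DESeq2 1.42.0, limma 3.58.1 and the settings of the closing section. The scripts were tested on simulated data. The genes and lists were chosen with earlier results of these data known. All 10 PRC2 genes were named, with RBBP4, SETD2 and NSD1, the called genes of each other list and up to 2 more by size of change between the lines, and the 3 nearest genes to each called PRC2 gene. Positions are from a RefSeq table (GRCh38), in which 6757 symbols matched directly, 316 by 1 synonym and 17 not.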

Additional observations from a re-analysis of the deposited data

Results flagged for a closer look

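For 9 named genes the change from library differed between the lines by the edgeR and RRA test of the difference itself. MTF2 differed by −1.71 and was depleted against library in the mutant line alone by call. NSD1 differed by −1.77, RBBP4 by −0.98, SIN3B by −0.89, L3MBTL2 by −0.80, SCMH1 by −0.75, MTA1 by −0.71 and BCOR by −0.68, all lower in SETD2-mutant cells. SETD2 differed by 0.50, higher in SETD2-mutant cells. With 2 samples in each group, single samples could not be examined for standing apart.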

How the results depend on the processing

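MTF2 kept its direction and its call between the lines in all 17 alternatives, at −1.86 to −1.51 and adjusted p from 7.03e-08 to 8.23e-05, and in SETD2-mutant cells against library in all 16. SUZ12, EED and AEBP2 kept theirs in parental cells in all 16. Over all single-gene results the alternatives gave 1096 values with the same direction and call, 64 that gained a call, 48 that lost one and 20 that changed sign.

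Between the lines the PRC2 genes depleted and enriched numbered 1 and 0. Limma on gene means gave 3 and 4, summed counts per gene 4 and 5, and the replicate block 1 enriched. Leaving out each sample in turn gave 0 to 1 enriched. Over all genes the reported 91 and 73 became 1564 and 894 with limma and 1503 and 1417 with summed counts, and 118 were enriched at equal ribosomal loss, where SETD2-mutant changes were multiplied by 0.866. For parental against library, limma called 2 PRC2 genes enriched and summed counts 4, with 2223 and 1665 genes depleted and enriched by limma and 2149 and 2092 by summed counts. For SETD2-mutant against library, the 2 depleted PRC2 genes became 1 with dummyguide scaling and at a rank share limit of 0.1, 9 with limma and 8 with summed counts, which called 1 enriched, and leaving out each sample in turn gave 1 to 2. Over all genes limma called 2699 and 1681 and summed counts 2320 and 2138, dummyguide scaling called 35 enriched, and leaving out each sample in turn gave 50 to 84 enriched. Summed counts and limma do not use the spread between guides.

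These values changed sign. Without the most changed guide JARID2 was 0.0151 between the lines, 0.113 in SETD2-mutant cells and 0.0983 in parental cells, and PHF19 was 0.125 in parental cells. With summed counts JARID2 was 0.0364 in the mutant and 0.0553 in the parental line and PHF19 0.169 in parental cells. With library totals PHF1 was −0.00735 in parental cells. Dummyguide scaling, which shifted the median gene by −0.92 in SETD2-mutant cells, −0.78 in parental cells and −0.15 between the lines, gave PHF19 −0.69, UTY −0.20 and ASXL3 −0.34 in SETD2-mutant cells and RBBP7 −0.60, MTF2 −0.51, PHF1 −0.76, UTY −0.12 and L3MBTL2 −0.0121 in parental cells. PHF19 in parental cells, at −0.00 as reported, ran from −0.161 to 0.101 when each sample was left out in turn. The cause of these changes was not tested.

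The deviations of same-numbered samples had correlations of −0.005 to −0.003 between groups, and the samples were fitted unpaired. Replicates of a line differed well beyond counting error, so these correlations cannot exclude that same-numbered samples were handled together. With the replicate block the change of MTF2 was −1.71 and EZH2 was called enriched at 0.64 (adjusted p = 0.0326 by edgeR and RRA), while L3MBTL2 between the lines (0.0551) and CHD4 in SETD2-mutant cells against library (0.0603) lost their calls. Depth was lowest in SETD2-mutant replicate 1, which limits guides with few counts, such as HZD_EPI_03597 of JARID2 with 4 counts there.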
